A study of Homo sapiens with 9 samples.

Results

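The 10 genes described here are the μ-class glutathione S-transferases GSTM1, GSTM2, GSTM3, GSTM4 and GSTM5, which lie side by side on chromosome 1, together with the detoxifying and antioxidant genes GSTP1, MGST1, NQO1, HMOX1 and GCLM. They were picked by symbol, and all 10 have a row in the gene table of 60603 rows. The table holds polyA RNA-seq of TC32, a human Ewing sarcoma cell line, in 9 libraries that the labels place in 1 batch. The siEF libraries (n = 3) came from cells treated with an siRNA across the breakpoint of EWS::FLI1, the siNEG libraries (n = 3) from cells given a nonspecific siRNA, and the Media libraries (n = 3) from cells given medium alone. All were wild type by label, were grown in serum-containing medium with glutamine and were taken at 30 h. The comparison of siEF with siNEG asks which transcripts depend on the fusion, and siNEG against Media shows what the nonspecific siRNA did by itself. All libraries come from 1 cell line, so the spread between them is that of cultures and not of tumors.

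Glutathione S-transferases join the tripeptide glutathione to reactive electrophiles, and the μ-class enzymes are soluble dimers whose genes arose by tandem duplication. NRF2, encoded by NFE2L2, is held in check by KEAP1 and, when released, pairs with small MAF proteins at antioxidant response elements (AREs) near NQO1, HMOX1, GCLM and other detoxifying genes, while BACH1 competes for the same sites. EWS::FLI1, the oncogenic transcription factor of Ewing sarcoma, can activate genes from repeats of the motif GGAA (GGAA microsatellites), and GSTM4 has long been listed among the genes it regulates through such a repeat.

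The sequence that sets GSTM4 apart from the other 9 genes is shown first. In hg38 a pair of GGAA runs, of 8 and 10 uninterrupted copies, lay 1832 and 1791 bases before the annotated start of GSTM4. They are printed as the plus strand of chr1:109654216-109654328, with the runs of whole GGAA copies in capitals.
GSTM4 upstream repeat: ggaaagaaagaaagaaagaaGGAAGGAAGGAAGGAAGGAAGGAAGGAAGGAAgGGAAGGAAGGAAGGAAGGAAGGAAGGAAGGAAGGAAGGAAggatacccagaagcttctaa
No other run of at least 4 copies was found on either strand in the 384.9 kb from 150 kb before GSTM4 to 150 kb past GSTM3. GSTM4 was also the only 1 of the 10 genes with such a run in the 5000 bases before its start. The same runs lay 13755 and 13714 bases before the start of GSTM2, which is outside that span. Of 20046 protein-coding genes, 462 (2.3%) had a run of at least 4 copies in that span and 157 (0.783%) had a run of at least 8. These are letters of the reference genome and not binding data.

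The reads of the GSTM genes can be told apart only where their transcripts differ, so the stretch of greatest difference between GSTM4 and GSTM2 is shown as well. Over the 654 coding bases, GSTM4 and GSTM2 differed at 71 positions (89.1% identity). The window of 60 bases with the most differences, 16, lay in exon 5 at coding bases 298 to 357, at chr1:109657810-109657869 for GSTM4 and chr1:109669509-109669568 for GSTM2 (hg38, plus strand). Capitals mark the bases that differ between the pair.
GSTM4: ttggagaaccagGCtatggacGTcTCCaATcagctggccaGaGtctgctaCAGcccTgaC
GSTM2: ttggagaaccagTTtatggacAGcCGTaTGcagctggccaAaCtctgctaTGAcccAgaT
The longest stretch of coding sequence shared by the pair was 78 bases. GSTM3 is the most distant of the cluster, with 72.3% to 74.9% coding identity to the others.

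Libraries held 20727706 to 33134581 expected counts. Values are given as CPM, the counts scaled to library size, after TMM scaling, whose factors ran from 0.970 to 1.03. The 10 most abundant genes took 12.3% to 12.9% of counts in siEF and 5.78% to 6.62% in the other libraries. Of the 10 genes, 8 were tested among 16093 genes, and GSTM1 and GSTM5 were too low. FLI1, whose row counts the 3′ part of the fusion along with any transcript of the intact gene, fell from 48.4 ± 0.315 CPM in siNEG to 37.8 ± 2.0 in siEF (log2 fold change -0.35, SE 0.06, adjusted p = 2.88e-05). NR0B1, an established fusion target, fell by 2.97 on the log2 scale (adjusted p = 7e-15). Both were already lower in siNEG than in Media, FLI1 by 0.26 (adjusted p = 0.00347) and NR0B1 by 0.37 (adjusted p = 0.00105). The paper states that silencing was checked by qPCR, and the change it gives is larger than that of the FLI1 row. It also describes these cells as lacking expression of FLI1 itself. Why the FLI1 row fell less was not tested, and the extent of silencing is not read from it. Of 8 Ewing sarcoma markers, 7 fell and CD99 rose by 0.23, with CCND1 (-4.29), NR0B1 and STEAP1 (-2.29) the largest falls. Of 7 markers of blood, endothelial and epithelial cells, 3, PTPRC and CD3E among them, were too low to test and none of the 7 exceeded 5.03 CPM in any library. Among them PECAM1 was lower in siEF than in siNEG (-1.22). EPCAM had 9 to 13 counts in siEF and 0 to 3 in siNEG, but 10 to 13 in Media, so only siNEG stood apart. CDH1 was higher in siEF at 16 to 28 counts against 0 in each siNEG library, or at least 9.74-fold against 3 counts per library. The part of these markers in the values below was not tested.

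**Figure D1:**
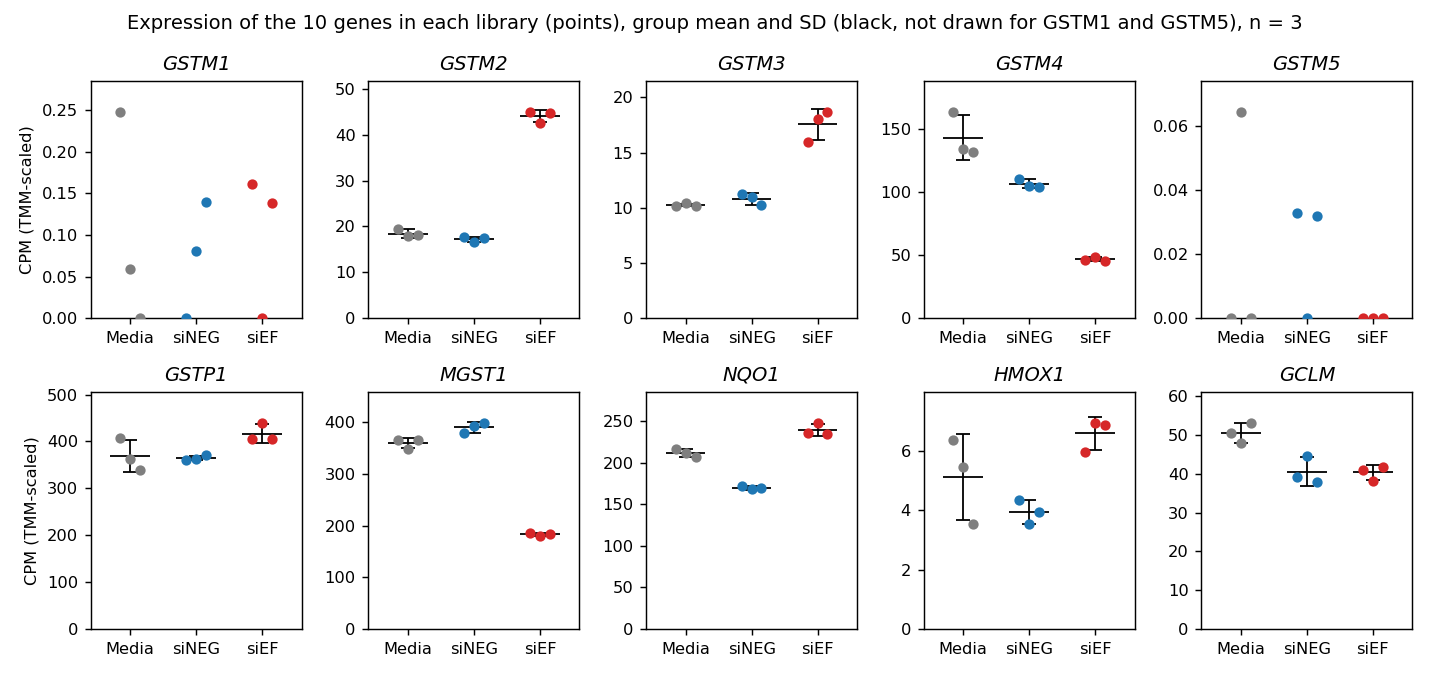
CPM (TMM-scaled, linear axes from 0) of the 10 genes in each library, 1 panel per gene, with points for libraries, a black line for the group mean and bars for the SD (n = 3, not drawn for GSTM1 and GSTM5). In siEF, GSTM4 and MGST1 sit below all 6 control libraries and GSTM2, GSTM3 and NQO1 above all 6, while GCLM in siEF lies among the siNEG values.

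GSTM4 (ENSG00000168765.17, chr1:109656099-109665496, plus strand, hg38) fell to 43.8% of its siNEG level. Its level was 46.1, 48.4 and 45.5 CPM in the siEF libraries, 111, 105 and 104 CPM in siNEG, and 163, 134 and 131 CPM in Media. The 3 groups did not overlap, with Media highest, siNEG between and siEF lowest. The log2 fold change of siEF over siNEG was -1.19 (SE 0.07, adjusted p = 2.17e-10, edgeR's quasi-likelihood test with Benjamini-Hochberg adjustment over all tested genes). The nonspecific siRNA itself came with less GSTM4, at -0.43 for siNEG over Media (SE 0.07, adjusted p = 0.000365). Against Media, which shares the siEF libraries, the change was -1.62 (SE 0.07, adjusted p = 4.06e-12). In bulk RNA, fewer expressing cells and less RNA per cell cannot be told apart. The fall of GSTM4 exceeds a log2 fold change of 1 as an estimate, but a test against that cut-off itself gave an adjusted p of 0.0109.

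GSTM2 (ENSG00000213366.13, chr1:109668022-109709551, plus strand), whose start lies 11.9 kb past that of GSTM4, moved the other way. Its level was 45.0, 42.6 and 44.7 CPM in siEF, 17.7, 16.6 and 17.5 CPM in siNEG, and 19.5, 17.9 and 18.0 CPM in Media. Every siEF library was above every control library, and siNEG and Media lay close together. The rise over siNEG was 1.35 on the log2 scale (SE 0.06, adjusted p = 6.41e-12), or 2.56-fold, the largest change of the 8 tested genes, and it held in a test against the cut-off of 1 (adjusted p = 2.7e-05). Over Media it was 1.26 (adjusted p = 1.58e-11), and siNEG over Media was -0.10 (adjusted p = 0.343).

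GSTM3 (ENSG00000134202.10, chr1:109733932-109741038), which lies on the minus strand at the far end of the cluster, was less abundant and rose to a lesser degree. It had 16.0, 18.0 and 18.7 CPM in siEF, 11.2, 10.9 and 10.2 CPM in siNEG, and 10.2, 10.4 and 10.2 CPM in Media. The siEF libraries again stood above all controls, with a log2 fold change of 0.70 over siNEG (SE 0.08, adjusted p = 1.16e-06) and 0.77 over Media (adjusted p = 3.73e-07). GSTM3 is annotated inside the long span of GSTM5 on the opposite strand, and the strand setting of the counting was not given in the sources used here.

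GSTM1 and GSTM5 were at the edge of detection. GSTM1 (ENSG00000134184.12, chr1:109687814-109709039), often lost from human genomes by deletion, had 4.45, 0 and 4.03 expected counts in siEF, 0, 2.74 and 4.35 in siNEG, and 7.59, 1.86 and 0 in Media. The 3 groups overlapped, and no fold or test is given. GSTM5 (ENSG00000134201.12, chr1:109711780-109775428) had 0 counts in each siEF library, 1.04, 0 and 1 in siNEG, and 0, 2.03 and 0 in Media. A count of 0 in these libraries allows up to 3 counts, or 0.0884 to 0.147 CPM depending on the library, and covers counting error only.

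Because GSTM2 and GSTM4 are near copies, the way reads were divided between them bears on both results. RSEM gives each gene a share of the reads that match several genes, which leaves values that are not whole. GSTM2 and GSTM4 had values that were not whole in 9 of 9 libraries, GSTM1 in 6 and GSTM5 in 2, while GSTM3 and the other 5 genes had whole values throughout. The sum of GSTM1, GSTM2, GSTM4 and GSTM5 was whole to within 0.02 counts in 9 of 9 libraries, so the divided reads stayed among these 4 genes. The 50-base windows of the canonical GSTM4 transcript were searched in all annotated transcripts of the other GSTM genes. Of these windows, 18.7% were found in another GSTM gene and 9.14% in GSTM2. For GSTM2 the shares were 46.1% with any and 45.8% with GSTM1, and for GSTM3 the share was 0%. GSTM1 is annotated inside the span of GSTM2 on the same strand. At 100 bases, 4.4% of GSTM4 windows and 37.0% of GSTM2 windows were shared. How many reads were divided cannot be read from gene totals, and GSTM1 with its few counts is the gene that GSTM2 most resembles.

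A sum over the cluster does not depend on that division. The 5 genes together had 108 ± 1.02 CPM in siEF, 135 ± 4.27 in siNEG and 172 ± 18.7 in Media (SD, n = 3). As 1 feature they fell by 0.31 on the log2 scale from siNEG to siEF (SE 0.06, adjusted p = 0.000259), to 80.6%, and by 0.35 from Media to siNEG (adjusted p = 0.000697). GSTM2 and GSTM4 summed alone fell by 0.45 (SE 0.06, adjusted p = 9.74e-06) from siNEG to siEF. With GSTM2 rising and GSTM4 falling, the change of their sum had to lie between theirs. What the 5-gene sum adds is its own fall.

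GSTM4 made up 79.1% ± 0.231 of the 5-gene total in siNEG and 83.1% ± 1.21 in Media, but 43.0% ± 1.35 in siEF. GSTM2 took 49.4%, 46.8% and 49.6% of the GSTM2 and GSTM4 counts in the 3 siEF libraries, with 95% Clopper-Pearson intervals that together ran from 44.5% to 51.5%. In siNEG it took 13.8%, 13.7% and 14.4% (intervals from 12.6% to 15.6%), and in Media 10.7%, 11.7% and 12.1% (9.86% to 13.1%). These intervals cover counting error only and were taken on rounded counts. The difference of 34.6 percentage points between siEF and siNEG gave p = 0.1 in a two-sided exact permutation test. This is the smallest p that 3 libraries against 3 (20 splits) allow. The difference of 2.46 points between siNEG and Media gave the same p in that test, so it cannot tell differences of such unlike size apart. On average, 1.06 ± 0.0672 GSTM4 counts were found for each GSTM2 count in siEF, against 6.17 ± 0.208 in siNEG and 7.73 ± 0.579 in Media.

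**Figure D2:**
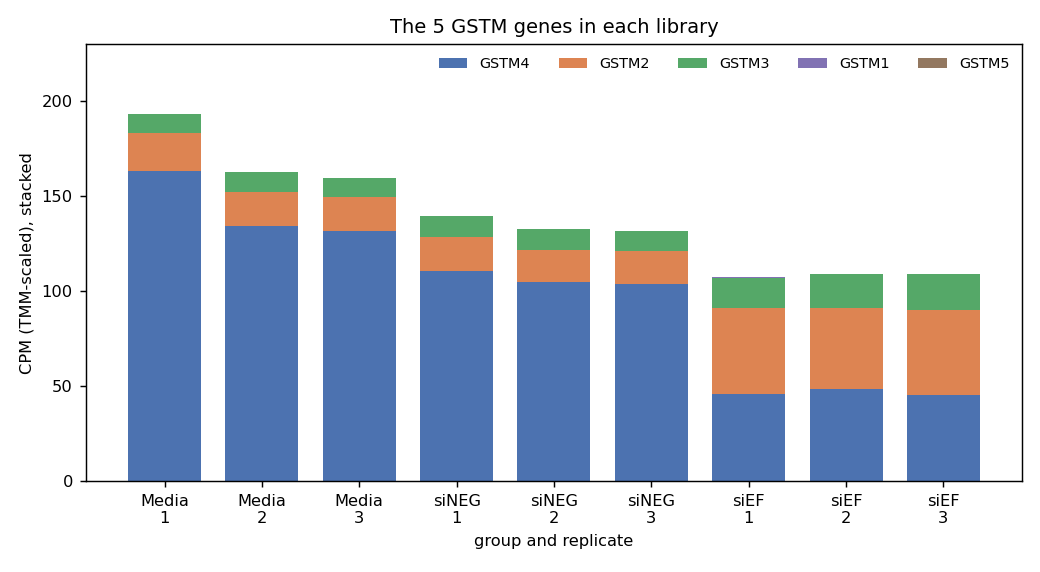
Stacked CPM (TMM-scaled) of the 5 GSTM genes in each of the 9 libraries, ordered by group and replicate; GSTM1 and GSTM5 are too low to see. GSTM4 shrinks from Media to siNEG to siEF, GSTM2 and GSTM3 are thicker in siEF, and the summed bars fall from a mean of 172 to 135 to 108 CPM.

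The genes around the cluster were read in the same way. GNAI3, AMPD2, CSF1 and AHCYL1 were tested, and GNAT2 and EPS8L3 were too low. CSF1, the macrophage colony-stimulating factor, rose from 3.58 ± 0.266 CPM in siNEG to 10.5 ± 0.616 in siEF (1.55 on the log2 scale, SE 0.14, adjusted p = 2.43e-08), and it starts past the far end of the cluster. AHCYL1, a regulator of inositol phosphate signaling, fell by 0.25 (adjusted p = 4.2e-05). GNAI3, a G protein subunit, was at -0.12 (adjusted p = 0.0127) and AMPD2, an AMP deaminase, at 0.01 (adjusted p = 0.876). GNAI3 passed under 7 of 18 alternatives, and AMPD2 took both signs. GSTM4 was thus the only tested gene on this map with a fall beyond 1, and GSTM2 and CSF1 had rises beyond 1.

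**Figure D3:**
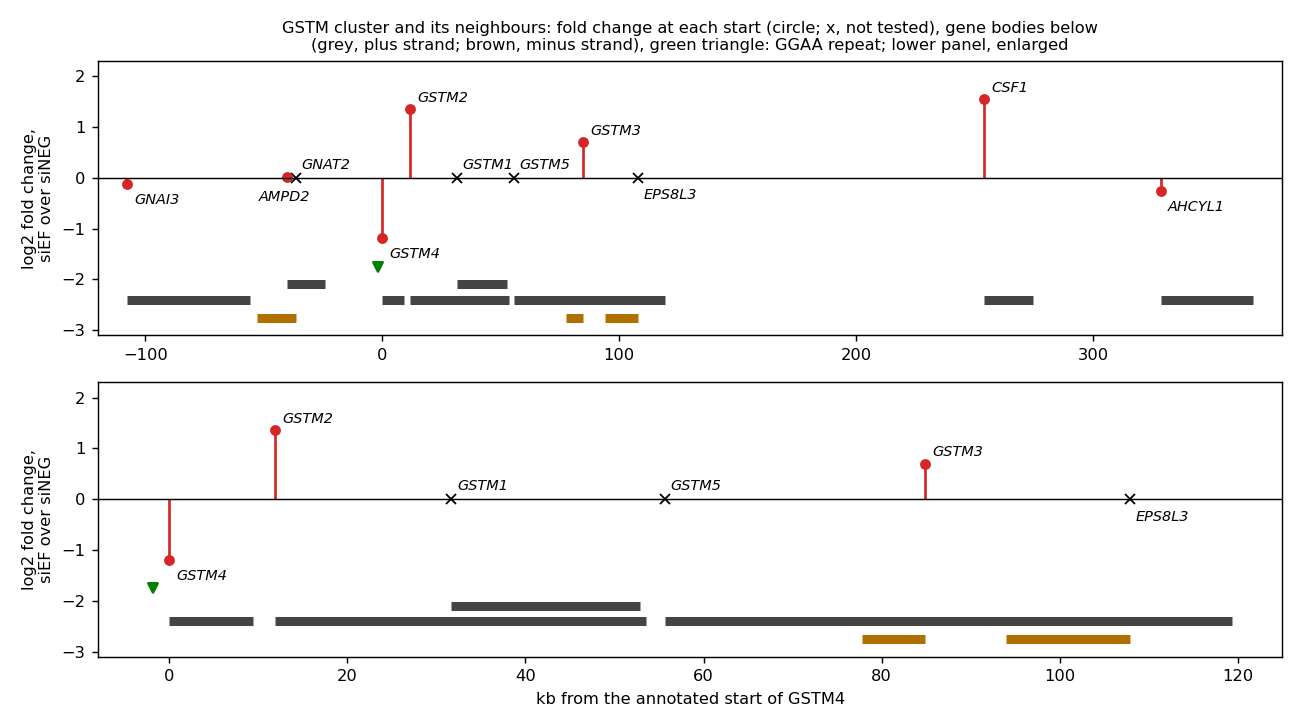
Log2 fold change of siEF over siNEG (y axis) for the GSTM genes and their neighbours, drawn at each gene's start against distance from the GSTM4 start in kb, with gene bodies below by strand, crosses for genes not tested and a green triangle for the GGAA repeat. The lower panel enlarges the cluster, where GSTM4 at -1.19 is followed by GSTM2 at 1.35 and, 84.9 kb from the GSTM4 start, GSTM3 at 0.70.

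Outside the cluster, the microsomal enzyme MGST1 (ENSG00000008394.13, chr12:16347142-16609259, plus strand), a membrane-bound glutathione transferase and peroxidase, fell most. It had 185, 179 and 184 CPM in siEF, 379, 392 and 399 CPM in siNEG, and 365, 349 and 366 CPM in Media. The siEF libraries were far below both control groups, which were close to each other. The log2 fold change over siNEG was -1.09 (SE 0.04, adjusted p = 5.09e-13) and over Media -0.98 (SE 0.04, adjusted p = 1.84e-12). With siNEG over Media at 0.12 (adjusted p = 0.0599), the change lay next to the cut-off of 1 from either control. A test against the cut-off gave an adjusted p of 0.0227 for siEF over siNEG, and without Media replicate 2 the change over Media was -1.01. MGST1 overlaps 5 other annotated genes.

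GSTP1 (ENSG00000084207.17, chr11:67583742-67586656, plus strand), the π-class transferase that is abundant in many tumors, changed little. It had 404, 440 and 405 CPM in siEF, 361, 362 and 370 CPM in siNEG, and 406, 362 and 340 CPM in Media. The siEF values were above those of siNEG but overlapped those of Media. The log2 fold change over siNEG was 0.19 (SE 0.06, adjusted p = 0.00698) and over Media 0.17 (adjusted p = 0.0129). The former missed 0.01 with RLE scaling (0.0104) and on leaving out any 1 of the 6 siEF and siNEG libraries or Media replicate 2 (0.0109 to 0.0523), and the latter passed without Media replicate 1 (0.000423), with upper quartile scaling (0.000479) and with at least 10 counts in every library (0.0032), so no firm change can be read.

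NQO1 (ENSG00000181019.13, chr16:69706996-69726668, minus strand), the quinone reductase most used as a readout of NRF2, rose. It had 236, 249 and 235 CPM in siEF, 172, 168 and 170 CPM in siNEG, and 216, 212 and 207 CPM in Media. The groups did not overlap, but Media lay nearer to siEF than siNEG did. The log2 fold change was 0.50 over siNEG (SE 0.04, adjusted p = 1.09e-08) and 0.18 over Media (SE 0.04, adjusted p = 0.000823), and that of siNEG over Media was -0.32 (SE 0.04, adjusted p = 4.86e-05). The size of the rise thus rests on which control is taken, and without a filter on low counts the difference from Media had an adjusted p of 0.0118.

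HMOX1 (ENSG00000100292.17, chr22:35380361-35394214, plus strand), which breaks down heme, was low. It had 5.96, 6.95 and 6.89 CPM in siEF (142 to 201 counts), 4.36, 3.54 and 3.94 CPM in siNEG, and 6.37, 5.46 and 3.53 CPM in Media. The siEF libraries were above the siNEG libraries, and Media spanned both. It rose by 0.74 over siNEG (SE 0.18, adjusted p = 0.0015), a call that missed the threshold without siNEG replicate 2 (adjusted p = 0.0101). The difference from Media was 0.36 (SE 0.18, adjusted p = 0.0764).

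GCLM (ENSG00000023909.10, chr1:93885199-93909456, minus strand), the modifier subunit of the enzyme that starts glutathione synthesis, did not separate siEF from siNEG. It had 41.1, 38.2 and 41.7 CPM in siEF, 39.1, 44.7 and 37.8 CPM in siNEG, and 50.4, 48.0 and 53.2 CPM in Media. Both siRNA groups overlapped each other and lay below Media. The log2 fold change over siNEG was -0.01 (SE 0.07, adjusted p = 0.952), and the same fall of 0.32 from Media was found in siNEG (adjusted p = 0.00431) and siEF (adjusted p = 0.000571). The former missed 0.01 on leaving out Media replicate 1 or 3 or siNEG replicate 1 or 3 (0.0116 to 0.029).

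**Figure D4:**
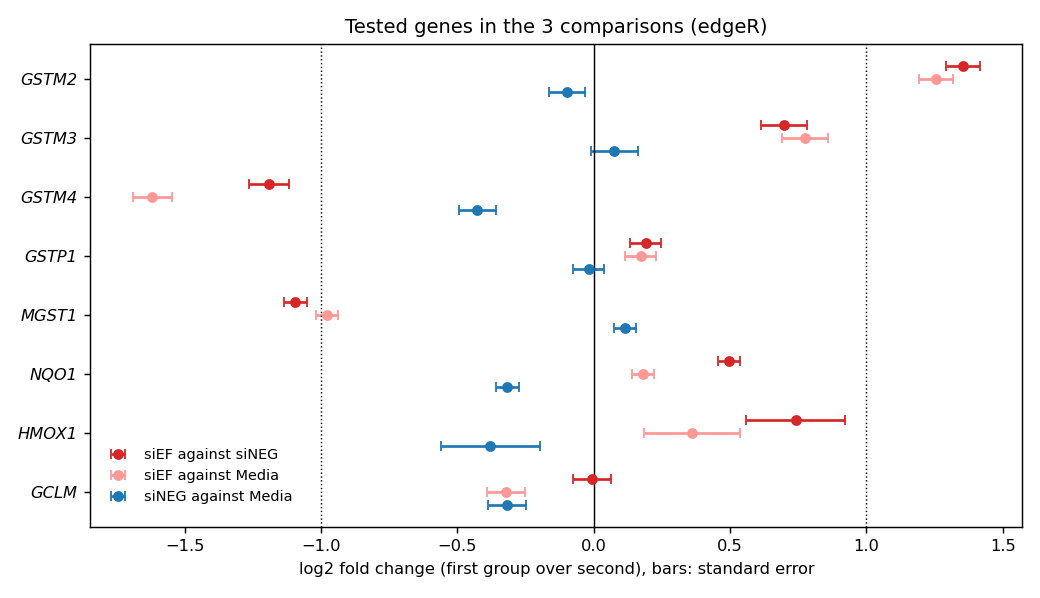
Log2 fold change (x axis) with its standard error (bars) of the 8 tested genes in siEF over siNEG, siEF over Media and siNEG over Media, with dotted lines at the cut-offs of 1 either way. GSTM2 and GSTM3 lie to the right and GSTM4 and MGST1 to the left from both controls, while NQO1 and GCLM shift with the control used.

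A gene passed the test at an adjusted p under 0.01, and it was called if it also changed by more than 1 on the log2 scale. In siEF against siNEG, 5 of the 8 tested genes passed as higher and 2 as lower, where 33.6% and 31.7% of all tested genes did so. GSTM2 was called higher and GSTM4 and MGST1 lower, against 17.1% and 11.7% of all genes. The siEF and siNEG libraries did not overlap for 7 of 8, as for 76.9% of all genes. The median change of the 8 was 0.34, beside 0.05 for all genes. With only 8 genes, and in a comparison in which most genes moved, the counts say nothing particular about these genes. A change larger in size than that of GSTM2 was seen in 20.7% of tested genes, and for GSTM4 and MGST1 the shares were 25.1% and 28.4%.

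In siNEG against Media, 3 of 8 passed as lower (GSTM4, NQO1 and GCLM) and 0 as higher, where 5.96% and 3.83% of all genes did. By edgeR 0 of the 8 were called, beside 0.162% of all genes called higher and 0.267% called lower. MGST1, at 0.12 higher, would be added at an unadjusted threshold of 0.05, and DESeq2 called 0 as well. The groups did not overlap for 5 of 8, a larger share than the 32.7% of all genes, though 8 genes are few. In siEF against Media, GSTM2, GSTM3 and NQO1 passed as higher and GSTM4, MGST1 and GCLM as lower, where 33.6% and 32.3% of all genes did. GSTM2 and GSTM4 were called there, against 17.4% and 12.5% of all genes called higher and lower.

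Levels between genes were compared per kb of canonical transcript. In siNEG the order of level was GSTP1 (492 ± 6.72 CPM per kb), MGST1 (422 ± 11), GSTM4 (76.4 ± 2.6), NQO1 (67.5 ± 0.861), GSTM2 (14.8 ± 0.480), GCLM (8.30 ± 0.752), GSTM3 (2.62 ± 0.127) and HMOX1 (2.54 ± 0.265), with GSTM1 and GSTM5 under 0.1. GSTM3 and HMOX1 differed by less than their spread. In siEF, MGST1 came to 198 ± 3.23 CPM per kb, NQO1 to 95.2 ± 2.96, and GSTM2 to 37.8 ± 1.14 against 33.5 ± 1.10 for GSTM4. GSTM4 was thus well above GSTM2 in level in siNEG, and the pair lay close together in siEF. Which of them is the higher in siEF depends on the scale, since GSTM4 had slightly more counts than GSTM2 in each siEF library.

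The other genes of glutathione and redox metabolism were read from 7 lists with 95 genes in all, of which 82 were tested. In siEF against siNEG 35 rose and 30 fell, where 33.6% and 31.7% of all tested genes did. Of the 82, 14 were called higher and 6 lower, beside 17.1% and 11.7% of all tested genes, and the median was 0.05, beside 0.05 for all genes. The lists thus held rises and falls side by side. The same shares and median of all tested genes are to be set beside the counts of each list below.

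Among 18 other glutathione transferases, 9 were tested. Of these, 5 rose and 2 fell, where 33.6% and 31.7% of all tested genes did. Their median was 0.78, beside 0.05 for all genes, and 9 genes are few. PTGES, a membrane prostaglandin E synthase of the same protein family as MGST1, rose from 3.70 ± 0.529 to 20.8 ± 1.48 CPM (2.49, SE 0.11, adjusted p = 4.89e-12) and was the only gene of the list called. GSTT1 was not analysed here.

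Of 21 genes of glutathione synthesis and use, 17 were tested, 8 rose and 8 fell. GCLC, the catalytic partner of GCLM, fell from 52.1 ± 1.56 to 24.7 ± 1.72 CPM (-1.07, SE 0.06, adjusted p = 1.44e-10), so that the subunits moved apart. The glutathione-degrading enzymes CHAC2 (-3.23, adjusted p = 8.07e-13) and CHAC1 (-1.09, adjusted p = 8.77e-06) also fell, and CHAC1 had already fallen by 1.11 from Media to siNEG. The γ-glutamyltransferase family member GGT7 (1.54, adjusted p = 3.06e-11) and glutaredoxin GLRX (1.14, adjusted p = 1.15e-11) rose. The secreted peroxidase GPX3 had 80 to 90 counts in siEF, 2 to 11 in siNEG and 0 in each Media library (4.07 over siNEG, adjusted p = 5.63e-07, and 4.70 without siNEG replicate 1).

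All 19 genes of the thioredoxin, peroxide and superoxide list were tested, and 9 rose and 5 fell. The stress-induced SESN3 rose by 1.75 (adjusted p = 1.3e-12) and the thioredoxin reductase TXNRD3 by 1.20 (adjusted p = 7.17e-06), while mitochondrial peroxiredoxin PRDX3 fell by 1.02 (adjusted p = 1.56e-11). From Media to siNEG, SESN3 had already risen by 0.64 (adjusted p = 1.23e-05), and PRDX3 had risen by 0.21 (adjusted p = 0.00722). The fall of PRDX3 was just under 1 without siEF replicate 1 or 3 (-0.99 each). Extracellular superoxide dismutase SOD3 had 15 to 20 counts in siEF and 0 in all 6 control libraries, at least 7.02-fold higher against 3 counts per siNEG library. Of 7 heme and iron genes, 3 rose and 3 fell, each by less than 1 on the log2 scale.

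Of 15 enzymes of quinone, aldehyde and NADPH metabolism, 5 rose and 7 fell. The aldo-keto reductases AKR1C2 (4.08, adjusted p = 8.26e-15), AKR1C3 (2.62, adjusted p = 5.15e-15) and AKR1C1 (2.54, adjusted p = 3.66e-07) rose, though they are near copies of one another with values that are not whole, so the split among them is uncertain. AKR1C2 had 30.0, 34.2 and 32.1 CPM in siEF and 1.93, 2.09 and 1.62 in siNEG. In siNEG over Media, AKR1C3 was already at 0.64 (adjusted p = 2.6e-05), while AKR1C2 (0.30) and AKR1C1 (-0.12) did not pass. AKR1B10 (-1.90, adjusted p = 0.000387), with 4 to 10 counts in siEF, and the NADPH-forming malic enzyme ME1 (-1.30, adjusted p = 2.09e-12) fell. For siNEG over Media, AKR1B10 was at -1.21 (adjusted p = 0.0107) and ME1 at -0.09 (adjusted p = 0.273).

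A list of 20 widely used NRF2 targets, 17 of them drawn from the lists above, holds none of the 10 genes above. It thus leaves out NQO1, HMOX1 and GCLM. Of the 20, 8 passed as higher and 8 as lower, where 33.6% and 31.7% of all tested genes did. Their median was -0.10, beside 0.05 for all genes. The largest changes were those of AKR1C2, AKR1C3, AKR1C1, AKR1B10, ME1 and GCLC.

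**Figure D5:**
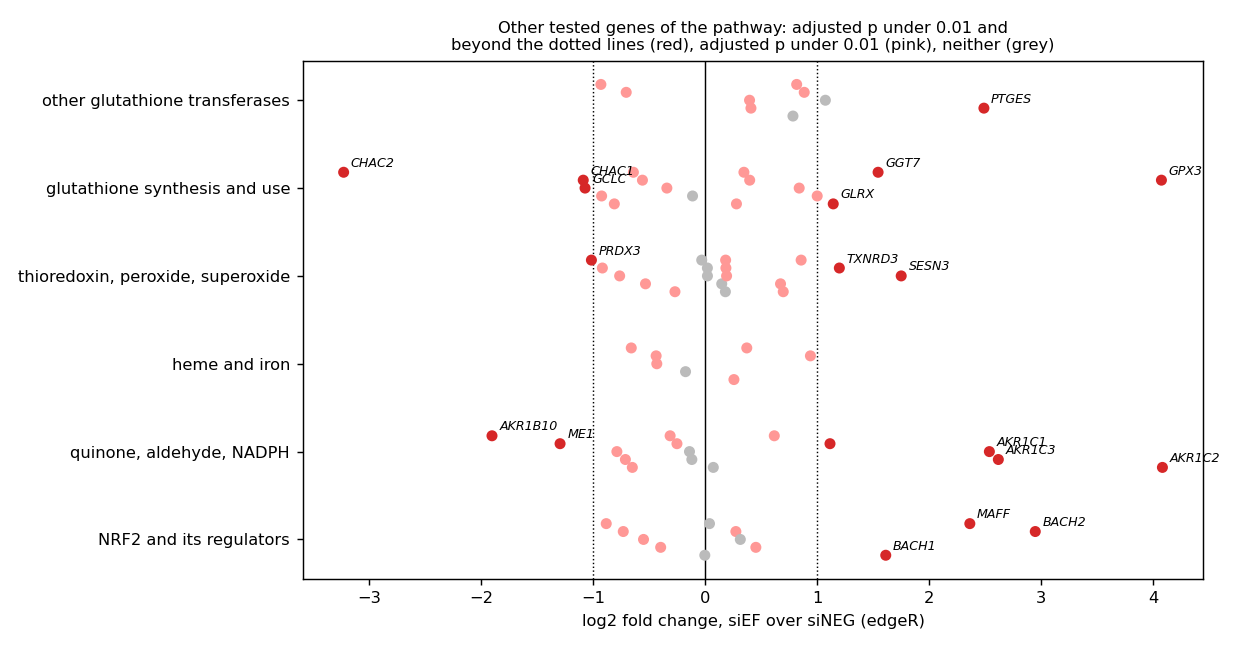
Log2 fold change of siEF over siNEG (x axis) for the tested genes of 6 lists (rows), in red where called, pink where only the test was passed and grey otherwise, with dotted lines at 1 either way; points are spread vertically for sight only, and SOD3, at 0 in all controls, is left out. Each row holds genes on both sides of 0, and called genes other than EPHX1 are labelled.

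Among the 12 regulators of the pathway, 5 rose and 4 fell. NFE2L2 itself fell from 110 ± 2.84 to 75.2 ± 3.14 CPM (-0.55, SE 0.05, adjusted p = 1.57e-08), and KEAP1 had 56.3 ± 1.80 and 57.9 ± 1.98 CPM (0.04, SE 0.07, adjusted p = 0.617). The repressors BACH1 and BACH2 rose. Of the small MAF genes, MAFF rose, while the more abundant MAFG (48 to 26 CPM, -0.88, adjusted p = 1.54e-09) and MAFK (15.5 to 11.8 CPM, -0.40, adjusted p = 0.00189) fell. BACH1 had 124, 121 and 130 CPM in siEF against 36.8, 44.9 and 41.3 CPM in siNEG (1.61, SE 0.07, adjusted p = 2.99e-12). BACH2 rose by 2.95 (SE 0.09, adjusted p = 5.76e-14) from 3.62 CPM in siNEG, having already risen by 0.66 from Media to siNEG (adjusted p = 0.000962). MAFF rose by 2.36 (SE 0.16, adjusted p = 9.8e-10) from 1.46 CPM, having fallen by 0.76 from Media to siNEG (adjusted p = 0.00548). The levels are of RNA, and NRF2 is governed chiefly through protein stability, which these data do not measure.

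The ARE letters TGACNNNGC were searched on both strands of the RefSeq promoter windows (GRCh38.p14, 250 bases before to 50 after the start), where 9 of the 10 genes had an entry. Of all 35116 windows, 4687 (13.3%) held a match. GSTM1, GSTM5, GSTP1, GCLM and 1 of the 3 windows of MGST1 had 1, and the windows of GSTM2, GSTM3, GSTM4 and NQO1 had none. Sequence farther from the start was not searched, so a gene without a match here may have one outside its window. The matches of the tested genes are printed 5′ to 3′ on the strand that carries the letters, with the match in capitals, to set beside their values.
GSTP1, chr11:67583736-67583764: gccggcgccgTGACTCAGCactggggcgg
MGST1, chr12:16347135-16347163: ggggacatcgTGACAAAGCaaattgtctg
GCLM, chr1:93909446-93909474: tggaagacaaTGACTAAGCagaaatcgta
The matches of GSTP1 and MGST1 were on the strand of the gene and that of GCLM on the opposite strand. The windows follow RefSeq starts, which differ from the GENCODE gene starts given above for GSTP1, MGST1 and GCLM, among others. Of these 3 genes, MGST1 fell, while GSTP1 was at 0.19 and GCLM at -0.01 with no firm change.

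Finally, the genes whose profile over the 9 libraries lay nearest to those of GSTM4 and GSTM2 were listed by the root mean square distance of centred log2(CPM + 1) values among 13457 genes. Among the nearest to GSTM4 were EIF4EBP1, a brake on cap-dependent translation (distance 0.070), and SLC27A4, a fatty acid transporter (0.083). Nearest to GSTM2 were MICAL1, an actin-oxidizing enzyme (0.047), FUT8, a fucosyltransferase (0.047) and HLA-E, a class I histocompatibility gene (0.048). With 3 groups of libraries, many genes share such a profile.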

How the data were processed

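PolyA RNA of 9 TC32 libraries was sequenced, and the labels name a small RNA library kit. Per their methods and labels, the authors mapped reads to hg38 with STAR, and their deposited values are RSEM expected counts per gene, with no further normalization. The submitters' processing notes name FastQC, cutadapt 2.10 and DESeq2 1.32.0; the annotation release and strand setting were not given in the sources used here. Gene identifiers were matched to GENCODE (60261 of 60558, 99.51%) for hg38 positions.

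Expected counts were rounded, filtered with filterByExpr, scaled by TMM and fitted in edgeR 4.0.16 (R 4.3.3) by quasi-likelihood with 1 mean per group over all 9 libraries, and p-values were adjusted over all 16093 tested genes. Each standard error was taken from the fold change and its F statistic. Replicates are labelled biological, and no libraries were duplicates. Deviations of libraries with the same replicate number correlated at -0.0875 to 0.0482, so the numbers did not pair them. Alternatives were DESeq2 1.42.0, other scalings and filters, unrounded counts, only the 6 libraries compared, a replicate block, a test against the cut-off, summed GSTM genes and each library left out. The test was also run on simulated counts in which few genes changed. These data differ, since most genes moved, so that run does not check the scaling here. Sequences were read with Python 3.11.15. GGT1 and SOD2 have 2 rows each and were left out of the lists.

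The members and lists were chosen with earlier results of these data known. Named genes were the 10 members, NFE2L2, KEAP1, BACH1, the neighbours of the cluster, FLI1 and NR0B1, up to 3 largest called rises and falls of each list, and the 3 nearest profiles of GSTM4 and GSTM2; a few genes under this rule are not reported here. CD99, MAFG, MAFK, EPHX1, GSTT1 and the untested markers were named after their values were seen.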

Additional observations from a re-analysis of the deposited data

How the results depend on the processing

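The 3 calls for siEF against siNEG (GSTM2, GSTM4 and MGST1) were made under DESeq2, each scaling and filter and each library left out (range 3 to 3). A test against the cut-off left 1 (GSTM2), and summing the 5 GSTM genes left 1 (MGST1). The pathway lists gave 20 calls, 19 to 21 with a library left out and 13 against the cut-off. The share of all tested genes called in siEF against siNEG was 28.8%, 17.5% without a filter on low counts, where many more genes are tested, and 18.2% against the cut-off. The summed GSTM fall of 0.31 (0.31 to 0.34 with a library left out) gave -0.31 against the cut-off with an adjusted p of 1, as it is smaller than the cut-off. The replicate block gave 3 calls among the 10 genes and 20 in the lists, and changed no other call.

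Signs turned only for values near 0. GCLM in siEF over siNEG was 0.081 with upper quartile scaling and 0.018 with at least 10 counts in every library (-0.062 to 0.063 with a library left out). KEAP1 was -0.0032 without a filter (-0.019 to 0.064 with a library left out), AMPD2 was -0.0057 with DESeq2 and -0.029 without a filter (-0.017 to 0.019), and GSTP1 in siNEG over Media was -0.076 to 0.056 with a library left out. GCLC fell short of a change of 1 with upper quartile scaling (-0.99), as did PRDX3 (-0.93) and PRDX3 with at least 10 counts (-0.99). Depth limits GSTM1, GSTM5 and, by its few counts, HMOX1. With 3 cultures of 1 line per group at 1 time, other lines and times were not examined.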
